A study of Mus musculus with 6 samples.

Results

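The RNAs of 10 genes that encode the writers of N6-methyladenosine (m6A) and of the related cap mark on mRNA were followed in mouse embryonic stem cells that carry or lack Mettl5. The genes are Mettl3, Mettl14, Wtap, Virma, Zc3h13, Cbll1, Rbm15, Rbm15b, Mettl16 and Pcif1. They were taken by name, through their GENCODE M21 symbols, and all 10 were found among the 24191 genes of the deposited table. PolyA RNA had been sequenced from 3 wild-type (WT) libraries and 3 libraries of Mettl5 -/- (knockout) cells. Both groups were J1 cells, a widely used embryonic stem cell line, grown in serum with LIF for 7 days. The labels do not say how many knockout clones were used, or whether replicates were separate cultures, so p-values measure the spread between these libraries, which may be technical. Only RNA abundance was measured, and m6A itself was not.

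m6A is the most common internal modification of mRNA, and in embryonic stem cells it is known for marking the transcripts of pluripotency factors for decay. METTL3 holds the catalytic site, and METTL14 is its inactive partner that helps to bind RNA. The pair is brought to RNA by a set of adaptor proteins, WTAP, VIRMA, ZC3H13, CBLL1 (also called HAKAI), RBM15 and RBM15B. METTL16 works outside that complex on structured RNAs, and PCIF1 methylates the adenosine next to the mRNA cap. METTL5, the enzyme removed here, methylates ribosomal RNA with TRMT112 and is no part of the mRNA complex.

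Levels are given on the TPM scale, the authors' length-normalised column, which allows genes to be compared. Differences are knockout minus WT on log2(scaled reads + 1), the authors' other column, tested with limma over 24183 genes with Benjamini-Hochberg adjustment, and a gene was called at an adjusted p under 0.05. The ratio of the columns shifted with genotype by a median of 0.059 on the log2 scale, so a small difference can look lower on the TPM scale. Mettl5 was at 50.3, 48.6 and 48.7 in WT replicates 1, 2 and 3 and at 3.65, 3.58 and 3.32 in the knockout libraries. Estimated depth was 38540000 to 59640000 fragments per library. The stem cell markers were present in every library, with the summed level of 10 markers between 5014 and 5410 in WT and between 4742 and 5194 in the knockout. Pou5f1, which encodes OCT4, was at 1498 ± 54.2 and 1330 ± 41.7, Sox2 at 139.9 ± 8.36 and 90.0 ± 1.38, and Nanog at 158 ± 2.18 and 157 ± 0.818 (SD, n = 3). Of the 10 markers 6 were called lower and 3 higher in the knockout, where 28.9% and 33.6% of all tested genes were called. The lower ones included Zfp42, on chromosome 8, which went from 583.5 to 237.5, Klf4 from 33.2 to 15.3 and Esrrb from 98.5 to 51.8, while Dppa5a, the marker with the highest level, went from 2330 to 2729 (means on the TPM scale, n = 3). Of 19 feeder fibroblast markers 16 were higher and 2 lower in the knockout, against the same shares of all tested genes, and their summed level went from between 154.6 and 166.0 to between 666.5 and 677.9. None of the 19 was at 0 in every library. Among the defining ones, Col1a1, Col1a2, Col3a1, Dcn, Lum and Postn were called higher and Thy1 lower. The collagen gene Col1a1 went from 0.694 ± 0.316 to 17.7 ± 0.444 and Thy1 from 13.1 ± 1.35 to 5.91 ± 0.831 (SD, n = 3). Dcn, Lum and Postn were only at 0.67, 0.114 and 0.63 in the knockout. The part of these markers in the results below was not tested, and in bulk RNA fewer cells of a type and less RNA per cell cannot be told apart.

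All writer genes were expressed in both genotypes. In the knockout 5 of the 10 RNAs were higher (Mettl14, Wtap, Virma, Cbll1 and Rbm15b), 3 were lower (Rbm15, Mettl16 and Pcif1), and Mettl3 and Zc3h13 were not called. These calls sit in a comparison in which 62.6% of all tested genes were called, 33.6% as higher and 28.9% as lower, so a call alone does not set these genes apart. On the TPM scale the groups did not overlap in 9 of the 10 genes, against 68.1% of all tested genes. Mettl14 was the gene whose groups overlapped. These shares of all tested genes were not matched for level. Of all tested genes 67.2% were at or below the WT level of Cbll1, the lowest writer gene, and 93.8% at or below that of Wtap. The median difference was 0.07 over the 10 genes and 0.00 over all tested genes. Most differences were small: 8 of the 10 genes lay between -0.25 and 0.30 on the log2 scale, and only Rbm15b (0.64) and Mettl16 (-0.64) were outside that range. For each of these, 37.9% of all tested genes had a difference at least as large in size.

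The split between higher and lower depended on how libraries were scaled. When each library was rescaled to the same total, the median of all tested genes moved from 0.00 to -0.15 and the writer genes went to 3 higher and 5 lower, where 26.1% and 37.8% of all tested genes were called. The higher genes were then Virma, Cbll1 and Rbm15b, and the lower ones were Mettl3, Zc3h13, Rbm15, Mettl16 and Pcif1. When log2 values were instead centred on the genes of each chromosome, using deviations from the gene means, 4 were higher and 5 lower, against 31.7% and 29.1% of all tested genes. Centring on the median level of each chromosome, as first planned, left 1 higher and 5 lower, against 27.1% and 34.0% of all tested genes. Wtap was the only writer gene whose direction turned under a scaling tried (-0.01 with the planned centring, limma adjusted p 0.895). Rbm15b, Rbm15, Mettl16 and Pcif1 stayed called under each of these scalings, while Virma and Cbll1 lost their calls with the planned centring.

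**Figure D1:**
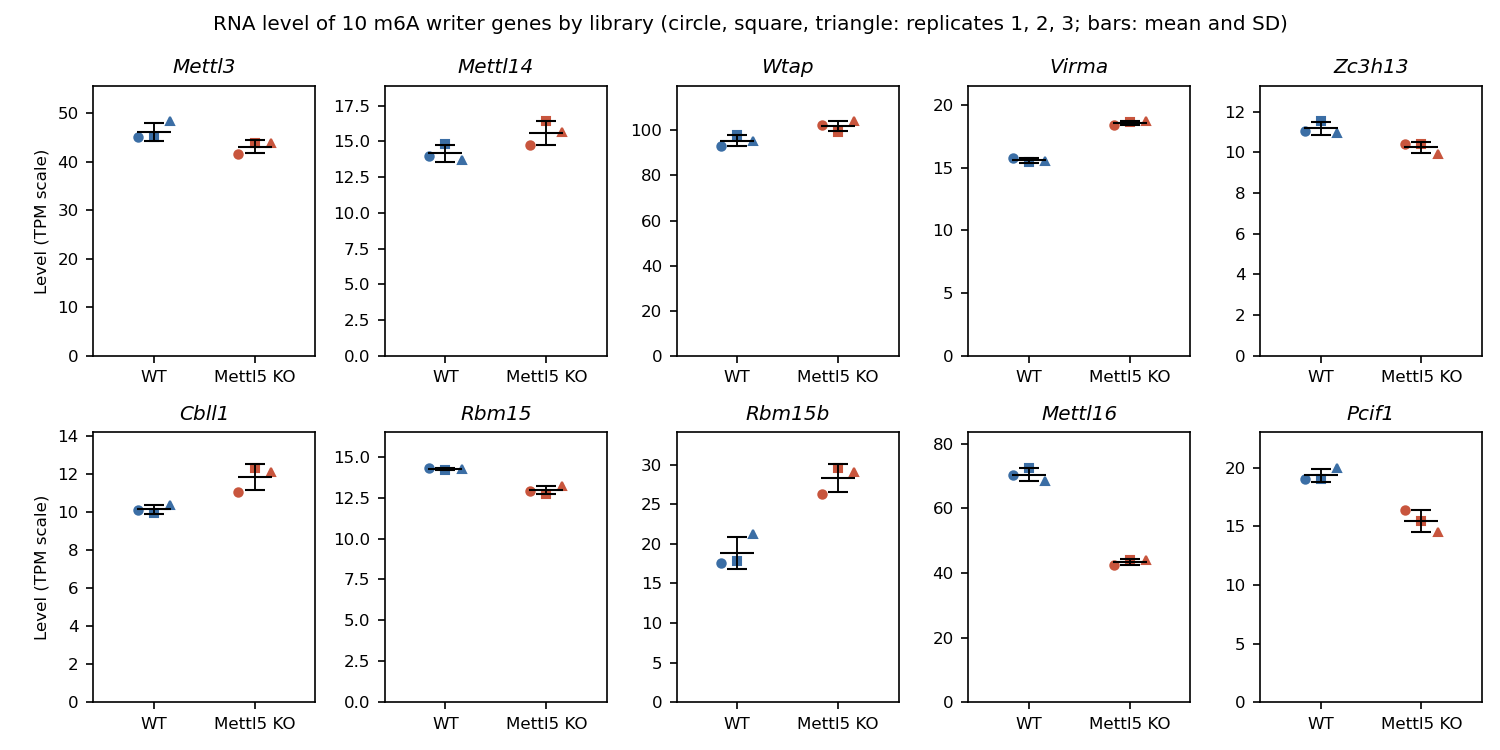
RNA level of each writer gene on the TPM scale (vertical axis, from 0) in the 3 WT and 3 Mettl5 knockout (KO) libraries, with replicates 1, 2 and 3 as circle, square and triangle and bars for the mean and SD. Mettl16 falls from 70.4 to 43.5 and Rbm15b rises from 18.9 to 28.3, while the other genes move much less.

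For the catalytic pair, calls depended on the scaling. Mettl3 (ENSMUSG00000022160, mm10 chromosome 14, 52294841 to 52305128, minus strand) was at 45.0, 45.0 and 48.3 in WT replicates 1, 2 and 3 and at 41.5, 43.9 and 43.8 in the knockout replicates. WT replicate 3 was the highest library, and all knockout values lay below all WT values on this scale. Its difference in scaled reads was -0.03 (SE 0.0428, 95% interval -0.13 to 0.06, limma adjusted p 0.532) and did not pass the threshold. With equal totals it was -0.19 (limma adjusted p 0.00291), with the planned chromosome centring -0.34 (limma adjusted p 0.000158), and with that on gene deviations -0.14 (limma adjusted p 0.0113). The gene overlaps the end of Tox4 on the other strand, whose own difference was 0.01 (limma adjusted p 0.92).

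Mettl14 (ENSMUSG00000028114, chromosome 3, 123368297 to 123386108, minus strand) was at 14.0, 14.8 and 13.7 in WT and at 14.7, 16.4 and 15.6 in knockout libraries. WT replicate 2 lay just above knockout replicate 1, so the groups overlapped. The difference was 0.19 (SE 0.0472, limma adjusted p 0.00637), but the call was lost on the TPM column (0.13, limma adjusted p 0.0581), with equal totals (0.03, limma adjusted p 0.555) and with chromosome centring on gene deviations (0.01, limma adjusted p 0.868). The summed level of the pair was 60.3 ± 1.53 in WT and 58.6 ± 2.15 in Mettl5 -/- cells (SD, n = 3). The groups overlapped on the TPM column as deposited, whose library totals were higher in the knockout.

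Among the adaptors, Wtap, which anchors the complex in nuclear speckles, had the highest level of all 10 genes. Wtap (ENSMUSG00000060475, chromosome 17, 12966796 to 12994169, minus strand) was at 93.2, 98.0 and 95.2 in WT and at 102.3, 99.3 and 104.0 in knockout libraries. Every knockout library was above every WT library, by a narrow margin. The difference of 0.18 (SE 0.0343, limma adjusted p 0.00146) was 0.02 with equal totals and no longer called (limma adjusted p 0.607).

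Virma, the large scaffold of the adaptor complex, was even across the libraries of each genotype. Virma (ENSMUSG00000040720, chromosome 4, 11485958 to 11550684, plus strand) was at 15.8, 15.4 and 15.5 in WT and at 18.4, 18.6 and 18.7 in knockout libraries. The groups did not overlap, with a coefficient of variation of 1.27% in WT and 0.774% in the knockout. Its difference was 0.30 (SE 0.0245, limma adjusted p 4.37e-06) and 0.14 with equal totals, still called (limma adjusted p 0.000831). With the planned chromosome centring it was 0.07 and not called (limma adjusted p 0.0918). It was 0.21 and called with the centring on gene deviations (limma adjusted p 4.88e-05).

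Zc3h13 encodes the zinc finger protein that keeps the adaptors in the nucleus. Zc3h13 (ENSMUSG00000022000, chromosome 14, 75284373 to 75344426, plus strand) was at 11.1, 11.5 and 10.9 in WT and at 10.4, 10.4 and 9.94 in knockout libraries. All knockout values were below all WT values on the TPM scale. In scaled reads the difference was -0.07 (SE 0.0367, limma adjusted p 0.105), not called, while it was called at -0.11 on the TPM column (limma adjusted p 0.035) at -0.23 with equal totals (limma adjusted p 0.000416) and at -0.38 with the planned chromosome centring (limma adjusted p 2.61e-05).

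Cbll1 encodes a RING finger protein with ubiquitin ligase activity. Cbll1 (ENSMUSG00000020659, chromosome 12, 31484829 to 31499616, minus strand) was at 10.1, 9.97 and 10.4 in WT and at 11.1, 12.3 and 12.1 in knockout libraries. Knockout replicate 1 was the nearest to WT, and the groups did not overlap. The difference was 0.27 (SE 0.0432, limma adjusted p 0.00043), and 0.11 with equal totals (limma adjusted p 0.0377). With the planned chromosome centring it was 0.08 and not called (limma adjusted p 0.159). It was 0.16 and called with the centring on gene deviations (limma adjusted p 0.00513). Cbll1 and Virma each overlap an antisense gene (Gm29542 and Gm11831), and the sources used here do not say whether strand was used in counting.

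The paralogs Rbm15 and Rbm15b, whose proteins bind RNA and bring the complex to its targets, including the Xist RNA, moved in opposite directions. Rbm15 (ENSMUSG00000048109, chromosome 3, 107325421 to 107333673, minus strand) was at 14.3, 14.2 and 14.3 in WT and at 12.9, 12.7 and 13.2 in knockout libraries. The WT libraries were nearly identical and all lay above the knockout libraries. The difference was -0.09 (SE 0.0271, limma adjusted p 0.0147), and -0.25 with equal totals. The call was lost without knockout replicate 2 (-0.08, limma adjusted p 0.0577).

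Rbm15b (ENSMUSG00000074102, chromosome 9, 106880918 to 106887428, minus strand) was at 17.5, 17.9 and 21.2 in WT and at 26.3, 29.6 and 29.1 in knockout libraries. WT replicate 3 stood above the other WT libraries and knockout replicate 1 below the other knockout libraries, yet the groups stayed apart. The difference was 0.64 (SE 0.0712, 95% interval 0.48 to 0.80, limma adjusted p 3.81e-05), a fold of 1.56 on the log2(scaled reads + 1) scale. It was 0.48 with equal totals and 0.57 with chromosome centring on gene deviations, and stayed called. Rbm15b lies inside the span of Manf on the same strand and touches Dcaf1 on the other strand. Manf, which encodes a secreted factor of the endoplasmic reticulum stress response, had a difference of 0.44 (limma adjusted p 3.04e-06), from 147 to 188 on the TPM scale, and Dcaf1 one of -0.13 (limma adjusted p 0.00137). The sources used here do not say how reads were divided between these overlapping genes, so the value of Rbm15b is uncertain to that extent.

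By the likeness rule, the genes whose log2 profile over the 6 libraries was nearest to that of Rbm15b included Ube2e1 and Wiz, with root mean square differences of 0.036 and 0.0447 on the log2 scale. The ubiquitin-conjugating enzyme gene Ube2e1 was at 82.4, 84.6 and 93.0 in WT and at 118.5, 125.5 and 127.9 in knockout libraries. It is on chromosome 14 and Wiz on 17. Like Rbm15b, both were highest among WT libraries in replicate 3, and lowest among knockout libraries in replicate 1. Both genes were picked for their likeness over these same libraries, so the shared order is no further evidence.

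METTL16 acts outside the METTL3 complex. Mettl16 (ENSMUSG00000010554, chromosome 11, 74770830 to 74828525, plus strand) was at 70.3, 72.5 and 68.4 in WT and at 42.4, 44.0 and 44.0 in knockout libraries. No knockout library came near a WT library. The difference was -0.64 (SE 0.0319, 95% interval -0.71 to -0.57, limma adjusted p 1.57e-07), a fold of 0.643. Genes of chromosome 11 were lower as a whole, with a median difference of -0.41 over 1787 tested genes. Of these genes 57.5% were called lower and 14.4% higher. Of the 5 nearest tested genes on each side of Mettl16, 6 were called lower and 1 higher, with a median of -0.41. Among them the mitochondrial mRNA-binding factor gene Cluh was at -0.64, Pafah1b1 at -0.34, and the MAX partner gene Mnt at 0.21. Measured against its chromosome, Mettl16 kept a smaller difference, -0.24 with the centring on gene deviations (limma adjusted p 0.000225). On chromosome 11, 36.1% of tested genes had a difference as low or lower.

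Pcif1, the cap-adjacent writer, was also lower. Pcif1 (ENSMUSG00000039849, chromosome 2, 164879304 to 164894454, plus strand) was at 19.1, 19.0 and 20.0 in WT and at 16.4, 15.5 and 14.5 in knockout libraries. The highest knockout library stayed below the lowest WT library. The difference was -0.25 (SE 0.0606, limma adjusted p 0.0059) and -0.40 with equal totals. It rests on the fewest reads of the set, an estimated 382 fragments in knockout replicate 1, where counting error alone would be about 5.12%. Its end overlaps Zfp335 on the other strand, which moved the other way (0.36, limma adjusted p 7.93e-05). Of the 10 tested genes around Pcif1, 6 were called higher and 2 lower, beside 37.0% and 23.6% of all tested genes on chromosome 2.

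**Figure D2:**
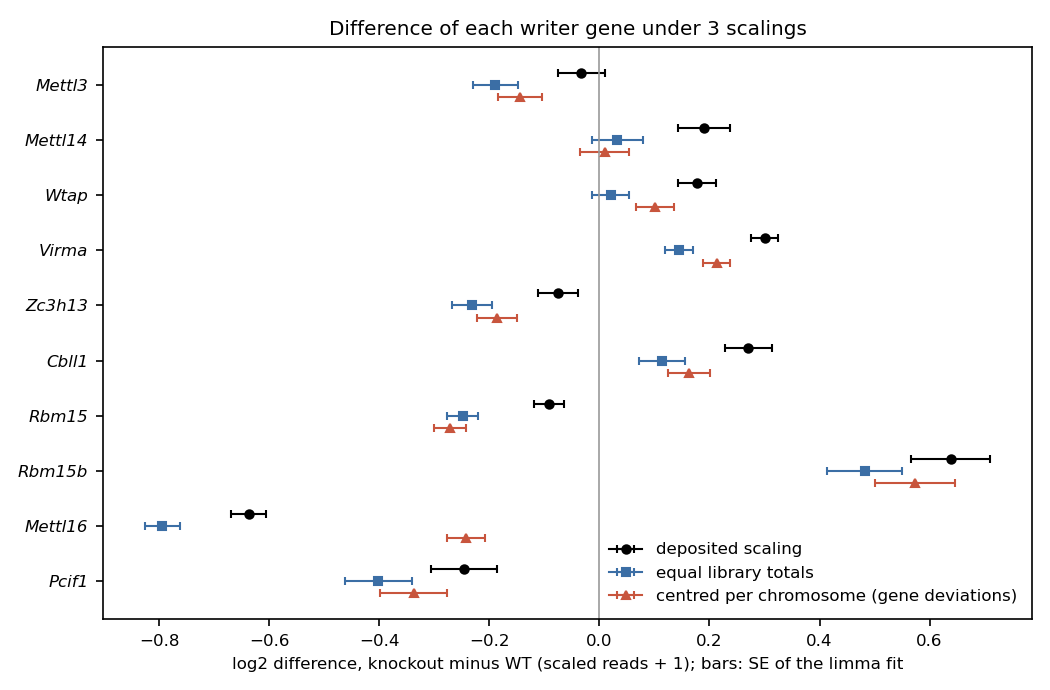
Difference of each writer gene, knockout minus WT, on log2(scaled reads + 1) (horizontal axis) with the SE of the limma fit, under the deposited scaling, with equal library totals, and with values centred per chromosome on gene deviations. Rbm15b stays between 0.48 and 0.64, Mettl16 moves from -0.64 to -0.24 when centred on chromosome 11, and Mettl14 and Wtap come close to 0 with equal totals.

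The chromosomes of the other writer genes had medians above 0. The median difference of all tested genes was 0.09 on chromosome 14 (Mettl3, Zc3h13), 0.16 on chromosome 3 (Mettl14, Rbm15), 0.06 on chromosome 17 (Wtap), 0.07 on chromosome 4 (Virma), 0.10 on chromosome 12 (Cbll1), 0.04 on chromosome 9 (Rbm15b) and 0.08 on chromosome 2 (Pcif1). Relative to these medians Mettl14 was at 0.03, the smallest distance of the set, and Rbm15b at 0.60, the largest. Rbm15 and Pcif1 were at -0.25 and -0.33 relative to their chromosomes. Chromosomes 6 and 8, which were low as well (-0.29 and -0.38), hold none of the 10 genes.

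**Figure D3:**
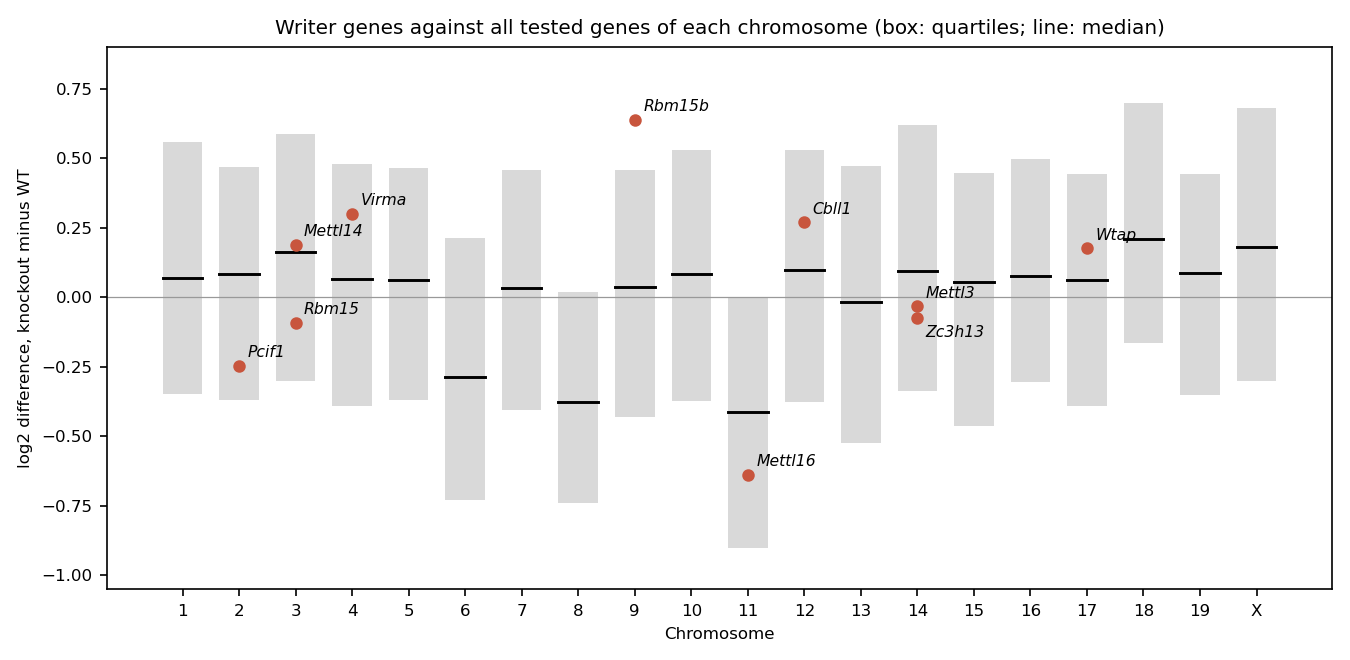
Difference of each writer gene (points) beside all tested genes of its chromosome, knockout minus WT on the log2 scale, with boxes for the quartiles and lines for the medians. Mettl16 lies within the quartiles of chromosome 11, whose median is -0.41, while Rbm15b lies above the upper quartile of chromosome 9.

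In WT cells the order of levels ran from Wtap (95.4 on the TPM scale) through Mettl16 (70.4), Mettl3 (46.1), Pcif1 (19.4), Rbm15b (18.9), Virma (15.6), Rbm15 (14.3), Mettl14 (14.2) and Zc3h13 (11.2) to Cbll1 (10.2). The neighbours Pcif1 and Rbm15b overlapped between libraries, as did Rbm15 and Mettl14. In knockout cells Mettl16 (43.5) and Mettl3 (43.0) overlapped, Rbm15b (28.3) and Virma (18.6) followed, Mettl14 (15.6) and Pcif1 (15.5) overlapped, and Rbm15 (12.9), Cbll1 (11.9) and Zc3h13 (10.3) came last without overlap. The summed level of the 6 adaptor genes was 165.5 ± 3.04 in WT and 183.8 ± 2.94 in Mettl5 -/- cells, and that of all 10 genes was 315.5 ± 4.44 and 301.4 ± 4.50 (SD, n = 3).

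Ratios between genes of the same library do not depend on how libraries were scaled to each other. The exact two-sided permutation test over libraries was used on 8 ratios, where 3 against 3 libraries cannot give a p below 0.1. The ratio of Mettl14 to Mettl3 was 0.311, 0.329 and 0.283 in WT and 0.355, 0.374 and 0.357 in knockout libraries. Every knockout library had more Mettl14 RNA per Mettl3 RNA than every WT library (log2 difference of the ratio 0.24, exact permutation p 0.1, adjusted p 0.114). The ratio of Wtap to Mettl3 was 2.07 ± 0.102 in WT and 2.37 ± 0.101 in knockout libraries (SD, n = 3), again without overlap.

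Within the adaptors, the ratio of Virma to Wtap was higher in every knockout library than in every WT library (0.163 ± 0.00612 to 0.183 ± 0.0042), while Zc3h13 went from 0.117 ± 0.00199 to 0.101 ± 0.00474 of the Wtap level (SD, n = 3). Cbll1 per Wtap overlapped between groups (0.107 ± 0.00417 and 0.117 ± 0.00793, SD, n = 3, exact permutation p 0.2). The ratio of Rbm15 to Rbm15b was 0.816, 0.795 and 0.673 in WT and 0.490, 0.430 and 0.455 in knockout libraries. Its log2 difference of -0.73 was the largest of the 8 in size, and WT replicate 3 was the lowest WT library. Mettl16 went from 1.53 ± 0.102 to 1.01 ± 0.0101 per Mettl3, and Pcif1 from 0.420 ± 0.00522 to 0.360 ± 0.0328 (SD, n = 3). Mettl16 and Mettl3 lie on chromosomes 11 and 14, whose median differences were -0.41 and 0.09, and their ratio does not remove this. Of the 8 ratios 7 did not overlap between groups, each with the smallest p the design allows (exact permutation p 0.1, adjusted p 0.114). The share of other gene pairs whose ratios do not overlap was not measured. The levels of single genes did not overlap in 68.1% of all tested genes on the TPM scale, which is another measure. Whether this count of ratios sets the writer genes apart therefore cannot be told.

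**Figure D4:**
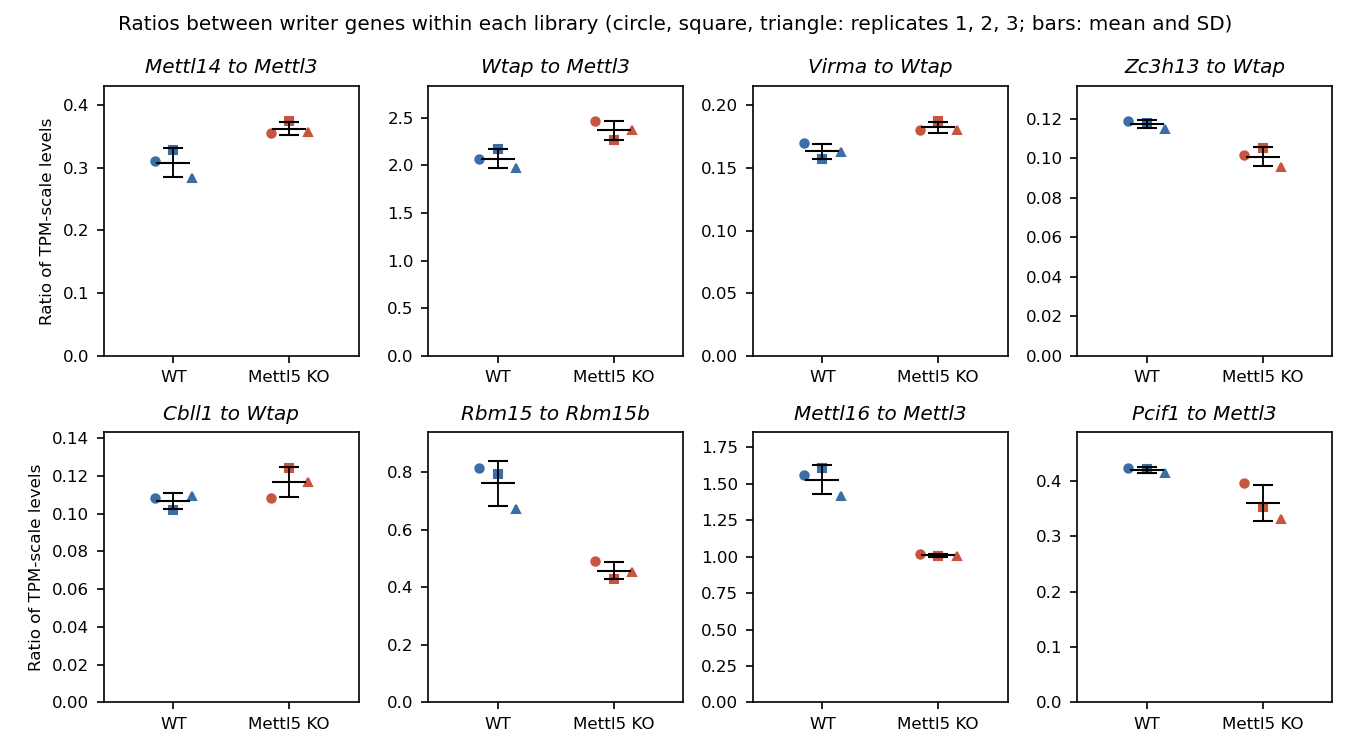
Ratios of TPM-scale levels between writer genes within each library (vertical axes, from 0), with replicates 1, 2 and 3 as circle, square and triangle and bars for the mean and SD. Rbm15 to Rbm15b goes from 0.762 to 0.459 and Mettl16 to Mettl3 from 1.53 to 1.01, and only Cbll1 to Wtap overlaps between WT and knockout (KO).

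METTL16 has a well-known mRNA target, the Mat2a transcript, which encodes the enzyme that makes S-adenosylmethionine, the methyl donor of all these writers. METTL16 binds hairpins in its 3′ untranslated region, and their loop sequences are shown because Mat2a is the best-known mRNA target of this writer. The motif TACAGANAA was searched on the sense strand of GENCODE M21 transcripts. It occurs 6 times in a Mat2a transcript of 2804 bases (mm10 chromosome 6, minus strand), each time in the 3′ untranslated part of the last exon. Each line gives the site and 10 bases on each side, 5′ to 3′, as DNA letters with the motif in capitals.
site 1: tggcgtaggtTACAGAGAAgccttcaagc
site 2: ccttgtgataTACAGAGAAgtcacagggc
site 3: ctggtgtagcTACAGAGAAaccagcttcc
site 4: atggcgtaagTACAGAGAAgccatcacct
site 5: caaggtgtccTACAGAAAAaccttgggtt
site 6: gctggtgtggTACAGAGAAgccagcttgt

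Site 1 lies nearest to the coding sequence (chr6:72434235-72434263) and site 6 farthest from it (chr6:72432938-72432966). Sites 1, 2, 3, 4 and 6 share the same 9 bases, and site 5 has another base at the variable position. Of 21901 genes with protein-coding transcripts 10.8% hold the motif at least once in such a transcript, and Mat2a is the only gene with 6. The motif alone does not show that a site is bound or methylated.

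Mat2a itself was at 126.2, 122.2 and 123.5 in WT and at 111.2, 112.5 and 111.7 in knockout libraries. All knockout libraries were lower, and the groups did not overlap. In scaled reads the difference was small, -0.07 (SE 0.0270, limma adjusted p 0.0384), and the call was lost when any library other than WT replicate 2 was left out (limma adjusted p 0.0666 to 0.105). Mat2a is on chromosome 6, and with values centred per chromosome on gene deviations its difference turned to 0.21 (limma adjusted p 8.81e-05). Without chromosome centring Mat2a stayed lower and called with equal totals (-0.23, limma adjusted p 6.2e-05) and on the TPM column (-0.15, limma adjusted p 0.000851). Its direction in this comparison therefore depends on whether values were centred per chromosome.

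The methyl donor cycle, Mat2a included, did not move together, with 2 of 7 genes higher, 3 lower and 2 not called (median 0.01). Mat2b, the regulatory subunit of the same enzyme, went from 84.3 ± 0.804 to 60.5 ± 0.583 (SD, n = 3), a difference of -0.41 (limma adjusted p 1.04e-06), but it is on chromosome 11 and was at -0.02 after centring there (limma adjusted p 0.656). The S-adenosylhomocysteine hydrolase relatives Ahcyl1 and Ahcyl2 had differences of 0.37 and -0.49 (limma adjusted p 2.41e-05 and 4.68e-05), and of 0.19 and -0.21 when centred per chromosome on gene deviations.

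Among 13 m6A readers, the proteins that bind the mark, 9 were higher, 2 lower and 2 not called (median 0.33, and 8 higher and 3 lower with equal totals). Of all tested genes 33.6% were higher and 28.9% lower, and 26.1% and 37.8% with equal totals, which is the background for each list of the pathway. Ythdf3, a cytoplasmic reader that promotes decay, rose from 29.7 ± 0.761 to 39.6 ± 0.908, and Igf2bp3, which stabilises its targets, from 11.8 ± 0.625 to 21.1 ± 0.666 (SD, n = 3; differences 0.46 and 0.91). With chromosome centring on gene deviations the difference of Ythdf3 was 0.28. Rbmx, an RNA-binding protein gene with closely related retrogene copies that can share reads, had a difference of 1.61 (limma adjusted p 4.95e-09). Both demethylase genes were lower: Alkbh5, on chromosome 11, went from 23.4 ± 0.682 to 14.5 ± 0.181, and Fto, on chromosome 8, from 23.3 ± 1.36 to 16.7 ± 0.606 (SD, n = 3). The difference of Alkbh5 was -0.63, and -0.24 when centred per chromosome on gene deviations. The difference of Fto was -0.43, and -0.07 without a call when centred per chromosome on gene deviations (limma adjusted p 0.243).

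Of 9 chromatin and export partners of the complex 7 were higher and 1 was lower (median 0.35, and 6 and 1 with equal totals), beside 33.6% and 28.9% of all tested genes. The histone methyltransferase gene Setd1b, whose product works with RBM15, rose by 0.68, the TGF-beta effector gene Smad2 by 0.55, and the nuclear reader gene Ythdc1, also counted among the readers, by 0.49. Smad2 is on chromosome 18, whose median difference was 0.21, and its direction turned with the planned chromosome centring (-0.06, limma adjusted p 0.26). With the centring on gene deviations Smad2 stayed higher and called (0.30, limma adjusted p 0.000314). Of 4 cap methylation genes 1 was higher, 1 lower and 2 not called. Rnmt, the cap guanine methyltransferase gene, had a difference of -0.10 (limma adjusted p 0.0134), its activator Ramac one of -0.07 (limma adjusted p 0.0902), and the cap ribose methyltransferase gene Cmtr1 one of 0.15 (limma adjusted p 0.0315) that was -0.01 with equal totals. The call of Cmtr1 was lost when any library other than WT replicate 1 was left out (limma adjusted p 0.0512 to 0.108), and that of Rnmt without knockout replicate 2 (-0.08, limma adjusted p 0.0536).

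The list of other RNA m6A enzymes held 4 genes, with Trmt112 counted as the gene of the METTL5 partner. Mettl5, the gene removed here, and Mettl4 were lower, Zcchc4 was higher and Trmt112 was not called. Mettl5 had a difference of -3.73 (SE 0.0522, limma adjusted p 5.4e-11), Mettl4 one of -0.26 and Zcchc4, whose product methylates 28S ribosomal RNA, one of 0.19 that was 0.03 with equal totals and no longer called (limma adjusted p 0.53). Of 9 other METTL genes 4 were higher and 3 lower, and 2 and 5 with equal totals. The transfer RNA methyltransferase gene Mettl6 rose from 33.0 ± 0.24 to 62.9 ± 0.719 (SD, n = 3; difference 1.00), Mettl2, on chromosome 11, was at -0.46 (-0.07 and not called when centred per chromosome on gene deviations, limma adjusted p 0.0727) and the mitochondrial ribosomal RNA methyltransferase gene Mettl15 at -0.69. Over the 47 genes of these lists, each counted once, 23 were higher and 14 lower, and 16 and 20 with equal totals. Of all tested genes 33.6% were higher and 28.9% lower, and 26.1% and 37.8% with equal totals. The lower genes of the lists include Mettl5, the gene removed here.

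**Figure D5:**
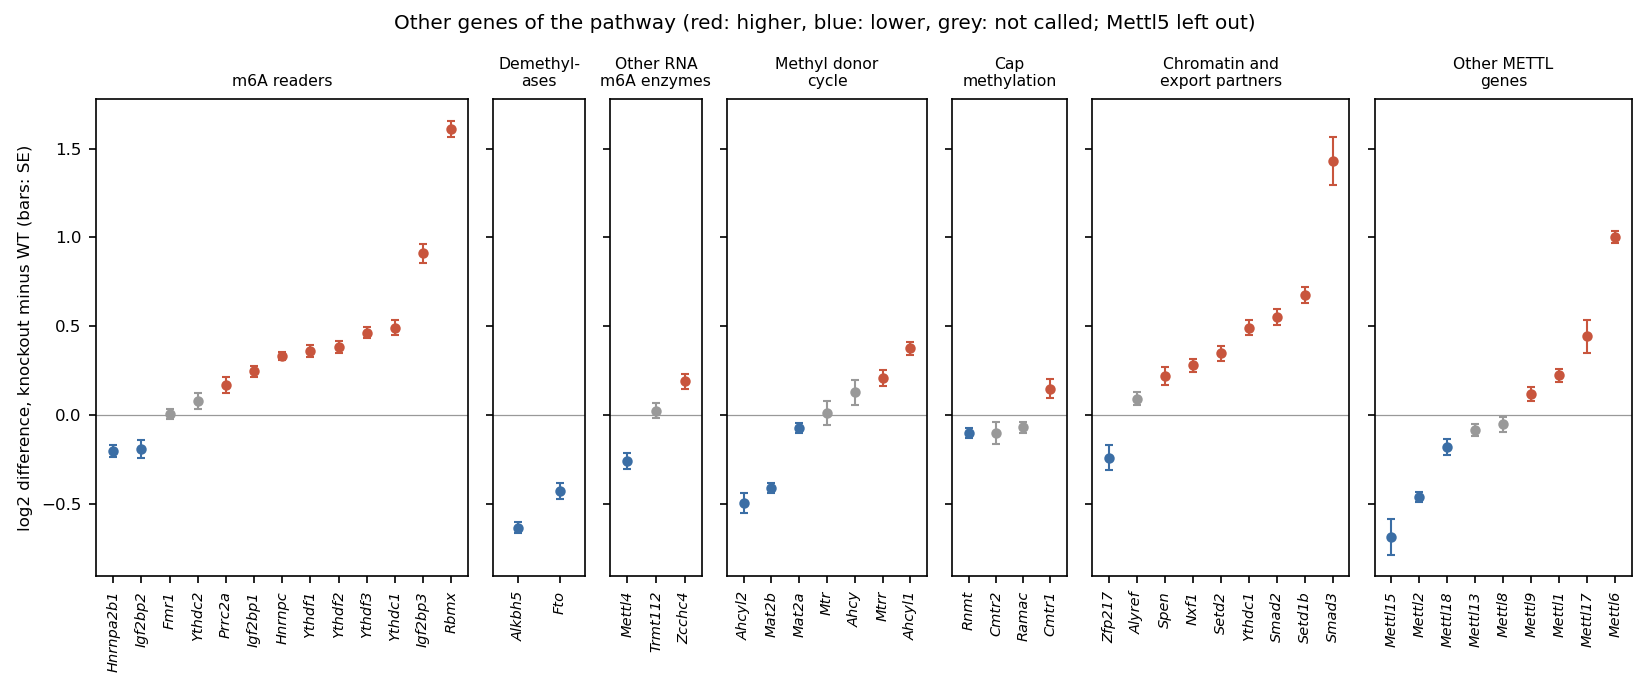
Differences of the other genes of the pathway, knockout minus WT on log2(scaled reads + 1) with the SE, by list, with called higher genes in red, called lower genes in blue and others in grey. Most readers lie above 0, up to 1.61 for Rbmx, and both demethylase genes lie below it. Mettl5, at -3.73, is left out of the plot.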

How the data were processed

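The authors used kallisto and sleuth with mm10, per the submitters' processing notes. The sources used here give no versions, annotation or use of strand. The table deposited by the authors held 2 signal columns per gene and library. The file headers name them scaled reads per base (called scaled reads here) and TPM. Neither holds whole counts, and the TPM column had been rescaled, since its libraries sum to 969800 to 1022000. Depth was estimated from steps in the low scaled reads, of which 29.7% to 32.8% between 0.5 and 40 lay within 0.02 of whole multiples. Replicate pairs differed by more than counting noise (chi-square per degree of freedom 2.95 to 7.02), and all 6 libraries were kept.

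log2(scaled reads + 1) of the 24183 genes averaging 1 scaled read or more was fitted with limma 3.58.1 in R 4.3.3, with the trend option. Ratios used exact permutation (scipy 1.17.1). The fit was tested on simulated data. Symbols and coordinates came from GENCODE M21 (GRCm38, also called mm10), which held 23846 of the 24191 identifiers. Samples were grouped by their titles. Named genes were the 10 writers, Mettl5, Mat2a, Pou5f1, Sox2, Nanog, the 3 smallest p-values of each pathway list, and for the writer with the largest difference the 3 genes nearest in profile, of which 1 is not reported here; Mnt, Cluh, Pafah1b1, genes overlapping a writer, Col1a1, Thy1, Zfp42, Klf4, Esrrb and Dppa5a were added for context after their values were seen. Members and lists were chosen with earlier results of these data known. Alternatives were other scalings, filters, pseudocounts, the TPM column, robust and voom variance models, a replicate block, chromosome centring and leaving out each library. The chromosome centring on gene deviations was chosen after seeing the data, because the planned centring on the median level of a chromosome moved the median of all genes by -0.10.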

Additional observations from a re-analysis of the deposited data

How the results depend on the processing

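Counts of writer genes called went from 5 higher and 3 lower to 3 and 5 with equal totals and to 1 and 5 with the planned chromosome centring, and 5 were lower with the centring on gene deviations, chosen after seeing the data. Leaving out a library gave 5 higher and 2 to 3 lower. With equal totals, the differences that crossed the threshold were Mettl3 (-0.19), Mettl14 (0.033), Wtap (0.021) and Zc3h13 (-0.23). With the planned chromosome centring they were Mettl3 (-0.34), Mettl14 (0.028), Virma (0.069), Zc3h13 (-0.38) and Cbll1 (0.076), and Wtap turned to -0.0077. With the centring on gene deviations they were Mettl3 (-0.14), Mettl14 (0.0094) and Zc3h13 (-0.19). On the TPM column Mettl14 (0.13) and Zc3h13 (-0.11) crossed it, and Zc3h13 (-0.10) did with median-of-ratios factors. The cause was not tested. Leaving out each library gave -0.053 to 0.0056 for Mettl3 and -0.11 to -0.080 for Rbm15, and Rbm15 was the only writer gene to cross the threshold. The 8 ratios kept their direction on scaled reads and when any library was left out. Pathway genes called higher went from 23 to 15 with the planned centring. Single genes that turned direction were Cmtr1 (-0.0082 with equal totals, -0.037 with the planned centring), Smad2 (-0.063) and Zcchc4 (-0.022) with the planned centring, Mat2a (0.20 and 0.21 with the planned centring and that on gene deviations) and Nanog (-0.12 with equal totals, -0.014 on the TPM column). Pseudocounts, filters, robust and voom fits changed no call of a writer gene. The replicate numbers did not pair the libraries (correlations of deviations 0.006, 0.025 and 0.032 for equal numbers, and not every library correlated best with its own number). With the replicate block Mettl16 stayed at -0.64, and the calls of writer genes stayed at 5 higher and 3 lower. Depth limits Pcif1 most.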
